A study of Mus musculus with 9 samples.

Results

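The nuclear genes of the mitochondrial ribosome were followed in 3 populations of dendritic cell (DC) progenitors from mouse bone marrow. Members were taken by gene symbol: every gene with a probe set of its own whose symbol begins with Mrpl or Mrps and a number, which gave 77 of the 19938 genes measured. For the 8 members with several probe sets, the one with the highest mean signal over the 9 arrays was used. By symbol, 48 members belong to the large subunit and 29 to the small subunit. The list was chosen by the signal differences that earlier results of these arrays had shown between the populations. Its counts below describe the list and are not independent evidence of a direction, and each adjusted p weighs a difference against the spread between arrays only.

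The populations were Zbtb46- common DC progenitors (CDPs), Zbtb46+ CDPs and pre-CD8 DCs, with 3 arrays each. All 9 arrays, the Zbtb46- ones too, carry the same genotype: the marrow came from Zbtb46-GFP reporter mice, and these were heterozygous. In such mice a fluorescent protein reports expression of Zbtb46, a transcription factor of classical DCs. Pre-CD8 DCs are the committed precursors of the CD8 lineage of classical DCs, now called cDC1. The study sought expression signatures of the progenitors in developmental order, and the populations are taken here in the order Zbtb46- CDP, Zbtb46+ CDP, pre-CD8 DC. The labels give neither the age of the mice nor the sort gates, and they do not say whether arrays were separate mice or pools.

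Mitochondria carry their own ribosomes, which translate the few proteins encoded by mitochondrial DNA, all of them subunits of the respiratory chain and ATP synthase. The RNA of these ribosomes comes from mitochondrial DNA, but their proteins are encoded in the nucleus, made in the cytosol and imported, so both genomes contribute to each ribosome. In blood progenitors, mitochondrial protein synthesis accompanies growth and division, and Myc is a known activator of many genes for mitochondrial biogenesis.

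Signals are given as log2 values of the deposited intensities, so a difference of 1 is a 2-fold difference, and levels of different probe sets are not compared. The median signal of an array lay between 110.2 and 118.0 and the upper quartile between 314.7 and 393.7, and with 3 arrays a group small differences cannot be resolved. All 77 members averaged above the table median of 6.82, with member means from 7.14 to 11.26. The labels were checked against markers: the summed linear signal of 8 cDC1 markers was 7132 to 8179 in Zbtb46- CDPs, 11009 to 14970 in Zbtb46+ CDPs and 19981 to 20923 in pre-CD8 DCs. Irf8 weighs most in this sum and did not pass between neighbouring populations (adjusted p = 0.078 and 0.948 by limma). Of the 8 genes 6 passed as higher each time, but not the same 6. Clec9a did not pass between the CDP groups (0.32, adjusted p = 0.375 by limma). Zbtb46 did not pass in pre-CD8 DCs against Zbtb46+ CDPs (0.27, adjusted p = 0.463). Between the CDP groups Zbtb46 passed at 0.71, but not without both replicate 1 CDP arrays (0.45, adjusted p = 0.0891). Of 4 progenitor markers, Csf1r and Cd34 fell along the order. Kit was highest in pre-CD8 DCs (11.58, against 10.47 in Zbtb46- CDPs), and Flt3 averaged 11.19, 10.70 and 11.29. Xcr1, a chemokine receptor of mature cDC1, averaged 5.84, 6.41 and 8.26, below the table median in both CDP groups. Replicate 1 of each CDP group stood apart by neutrophil granule transcripts: the summed signal of 6 such genes was 17806 in Zbtb46+ and 5009 in Zbtb46- replicate 1, against 437 to 1552 in the other 7 arrays. Results are therefore also given without both replicate 1 CDP arrays.

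The list as a whole dipped in Zbtb46+ CDPs. The median signal of the 77 members was 9.40, 9.17 and 9.32 in the Zbtb46- CDP arrays, 8.93, 8.80 and 8.91 in the Zbtb46+ CDP arrays, and 9.09, 9.19 and 9.02 in the pre-CD8 DC arrays. The Zbtb46+ CDP arrays were the lowest 3 and did not overlap with the others, while the ranges of the other populations overlapped. The group mean was lowest in Zbtb46+ CDPs for 72 members, in pre-CD8 DCs for 3 and in Zbtb46- CDPs for 2. It was highest in Zbtb46- CDPs for 59 members, in pre-CD8 DCs for 18 and in Zbtb46+ CDPs for none (0). All 3 Zbtb46+ CDP arrays lay below the 6 other arrays in 41 of 77 members, where 5.88% of all genes did so. In bulk samples such as these, fewer cells that express a gene and less of its RNA per cell cannot be told apart.

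**Figure D1:**
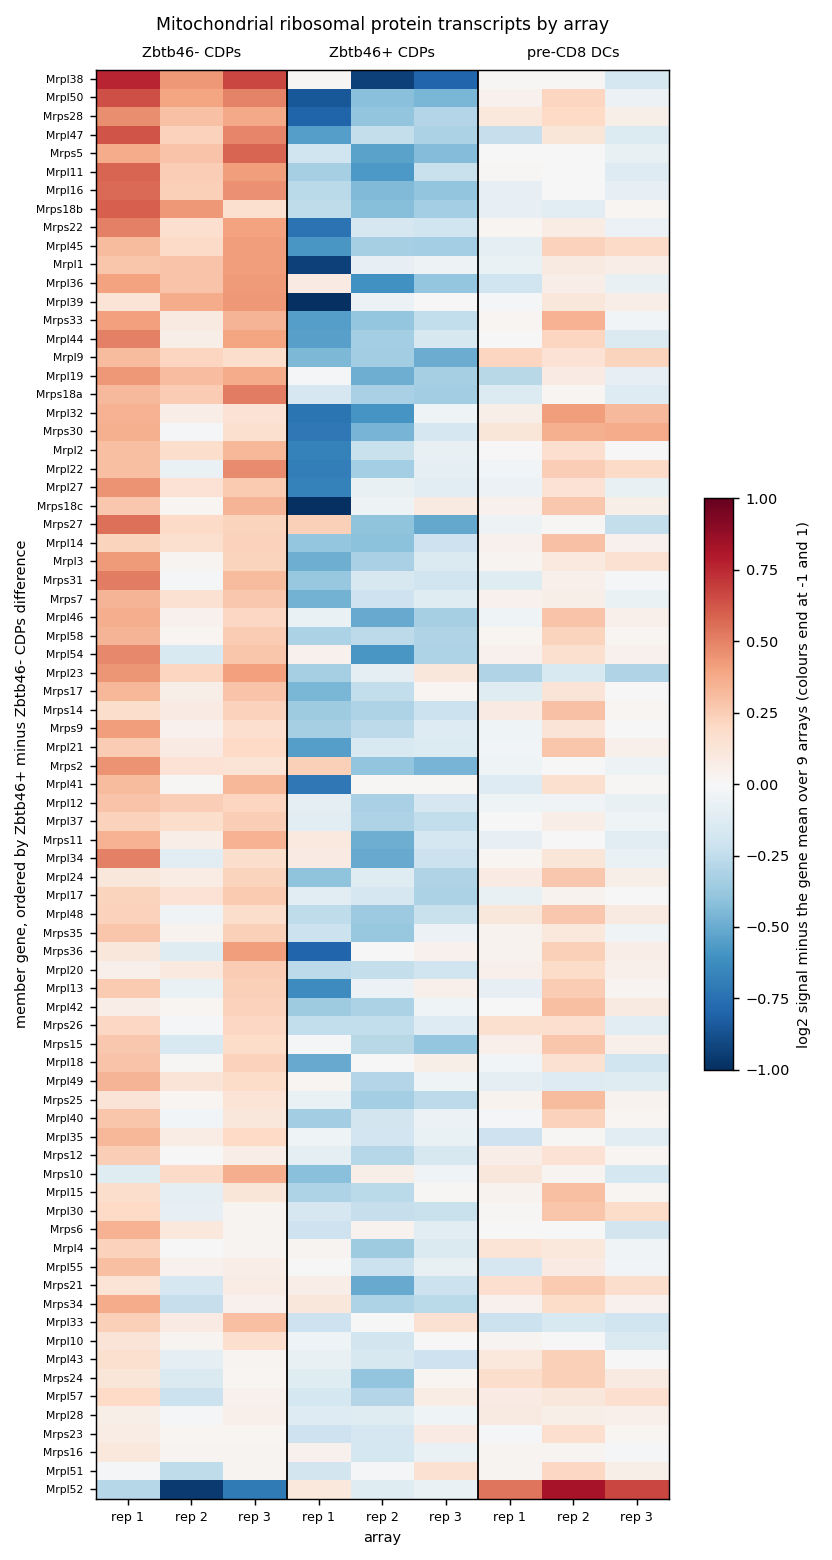
Each row is a member gene and each column an array, with colour giving log2 signal minus the gene's mean over the 9 arrays, and rows ordered by the difference between Zbtb46+ and Zbtb46- CDPs. Most rows are red in the Zbtb46- CDP arrays, blue in the Zbtb46+ CDP arrays and pale in the pre-CD8 DC arrays, and Mrpl52 in the bottom row runs the other way.

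Other genes of like brightness were also lower at the median. Across the 8946 genes whose mean lay within the range of member means, the median difference between Zbtb46+ and Zbtb46- CDPs was -0.13, and quantile normalization, which gives every array the same distribution, set it to 0.00. After that normalization the member medians were 9.22, 9.19 and 9.29 in Zbtb46- CDPs, 8.89, 8.98 and 9.05 in Zbtb46+ CDPs, and 9.06, 9.17 and 8.99 in pre-CD8 DCs. The ranges of Zbtb46+ and Zbtb46- CDPs still did not overlap, but those of pre-CD8 DCs and Zbtb46+ CDPs then did. The Zbtb46+ CDP arrays lay below the 6 others in 21 members (4.47% of all genes). With both replicate 1 CDP arrays also left out, the remaining Zbtb46+ arrays lay below the remaining 5 others in 30 members (13.8% of all genes).

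**Figure D2:**
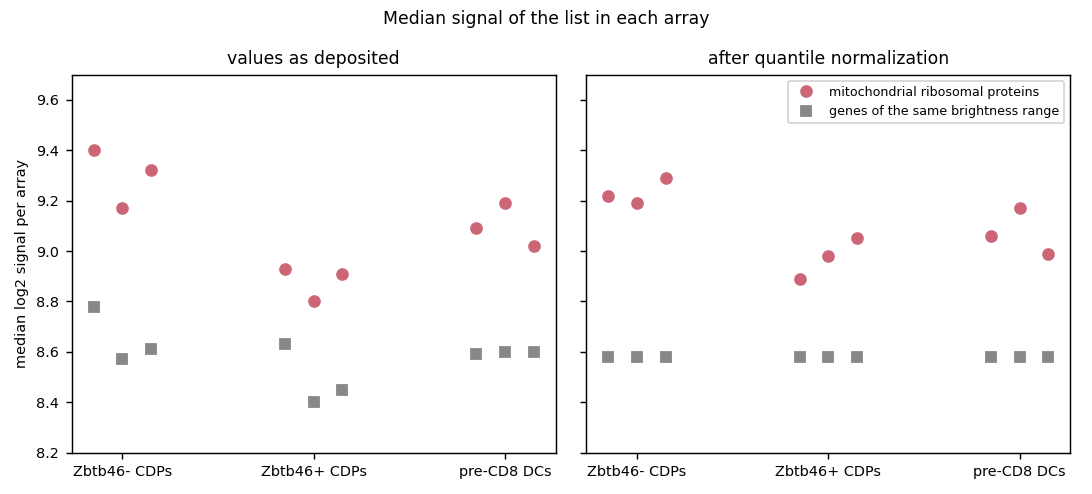
Median log2 signal per array (y axis) of the 77 members and of the 8946 genes in the same brightness range, for the 3 populations, with the values as deposited on the left and after quantile normalization on the right; each point is an array. The members sit lowest in Zbtb46+ CDPs on the left, at 8.80 to 8.93, and on the right their 8.89 to 9.05 overlaps with the 8.99 to 9.17 of pre-CD8 DCs.

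The first comparison asks what separates Zbtb46+ from Zbtb46- cells within the CDP population. Of the 77 members, 38 were lower and 1 was higher in Zbtb46+ CDPs by limma at an adjusted p under 0.05 over all genes, where 10.6% of all genes were lower and 3.85% higher. Among genes of the same brightness range 19.2% were lower. The median difference of the members was -0.45, against 0.04 over all genes, and it was negative for 75 members. The 3 Zbtb46+ arrays lay below the 3 Zbtb46- arrays in 52 members (17.4% of all genes). After quantile normalization 19 members were lower and 1 higher (7.88% and 6.1% of all genes), against 12.9% and 11.7% of genes of the same brightness range. Each of them was also called with the values as deposited, and the median was -0.31. Without both replicate 1 arrays 36 were lower and 1 higher (13.8% and 8.71% of all genes), 28 of the 36 shared with the full set, and with both changes 23 were lower and 1 higher (9.83% and 9.5% of all genes). With the replicate number as a block 43 were lower and 1 higher (12.3% and 5.06% of all genes). The count of lower members was 21 without Zbtb46- replicate 1, 20 without Zbtb46- replicate 3 and 23 in a fit of the CDP groups alone, where 6.57%, 6.73% and 6.96% of all genes were lower.

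Among large-subunit members the 2 largest falls were those of Mrpl38 and Mrpl50, proteins that mitochondrial ribosomes have and bacterial ones lack. Mrpl50 measured 8.15, 8.58 and 8.54 in Zbtb46+ CDPs, against 9.64, 9.39 and 9.49 in Zbtb46- CDPs. The groups were well apart, and the mean was 2.13-fold lower (log2 difference -1.09 ± 0.13 SE, adjusted p = 0.000803 by limma). Mrpl38, a protein of the central protuberance, measured 8.47, 7.52 and 7.66 in Zbtb46+ CDPs, against 9.22, 8.89 and 9.12 in Zbtb46- CDPs. It was 2.28-fold lower (-1.19 ± 0.22, adjusted p = 0.0068), and Zbtb46+ replicate 1 lay nearest to the Zbtb46- arrays. Without the replicate 1 arrays its difference was -1.41.

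Some members with bacterial counterparts fell and others, such as Mrpl10, did not pass. Mrpl16, a protein near the peptidyl transferase centre, measured 8.65, 8.48 and 8.53 in Zbtb46+ CDPs, against 9.49, 9.16 and 9.38 in Zbtb46- CDPs (-0.79, adjusted p = 0.000857 by limma). Mrpl11, at the base of the stalk that recruits translation factors, averaged 8.76 ± 0.18 in Zbtb46+ CDPs and 9.55 ± 0.17 in Zbtb46- CDPs (log2 signal, SD, n = 3 each; -0.79, adjusted p = 0.00216 by limma). Mrpl12, the stalk protein itself, which is also reported to bind the mitochondrial RNA polymerase, averaged 8.27 ± 0.12 in Zbtb46+ CDPs and 8.72 ± 0.04 in Zbtb46- CDPs, a fall of 1.36-fold. Mrpl10, which anchors the stalk, differed by only -0.18 and did not pass (adjusted p = 0.185). Whether the stalk proteins differed from each other was not tested.

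The large subunit also holds Mrpl47, which averaged 7.92 ± 0.16 in Zbtb46+ CDPs and 8.74 ± 0.20 in Zbtb46- CDPs (SD, n = 3 each), a fall of 1.76-fold. A second, dim probe set of Mrpl47 gave -0.11, so this value rests on the brighter probe set. Mrpl3, a conserved core protein, averaged 9.17 in Zbtb46+ CDPs and 9.71 in Zbtb46- CDPs (-0.54, adjusted p = 0.016 by limma). Mrpl58, a paralogue of release factors that became part of the ribosome, fell to 8.43 in Zbtb46+ CDPs, against 8.92 in Zbtb46- CDPs. In all, 25 of the 48 members named for the large subunit were lower (52.1%) and 1 was higher (2.08%), against 10.6% and 3.85% of all genes. After quantile normalization 14 of the 48 were lower (29.2%, against 12.9% of genes of the same brightness range). Of the members named here, Mrpl3, Mrpl20, Mrpl23, Mrpl24, Mrpl32, Mrpl48, Mrpl58, Mrps7, Mrps14 and Mrps30 lost the call after quantile normalization, and Mrpl23, Mrpl32 and Mrps30 also lost it without the replicate 1 arrays.

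Of the 29 members named for the small subunit 13 were lower (44.8%, against 10.6% of all genes). After quantile normalization 5 of the 29 were lower (17.2%, against 12.9% of genes of the same brightness range). With the values as deposited, the median difference of these 29 members, -0.45, equalled that of the members named for the large subunit. This split follows the symbols, not the seat of each protein. Mrps28 measured 7.97, 8.38 and 8.48 in Zbtb46+ CDPs, against 9.24, 9.07 and 9.15 in Zbtb46- CDPs. The arrays were separate, and Mrps28 was 1.84-fold lower (-0.88 ± 0.12, adjusted p = 0.002 by limma). Mrps5, a conserved protein near the messenger RNA entry, measured 8.47, 8.13 and 8.23 in Zbtb46+ CDPs, against 9.04, 8.95 and 9.25 in Zbtb46- CDPs, and was 1.74-fold lower. Its second probe set gave -0.74 beside the -0.80 of the main one. Mrps7, which binds the small ribosomal RNA early in assembly, fell to 8.78 ± 0.18 in Zbtb46+ CDPs, against 9.30 ± 0.10 in Zbtb46- CDPs.

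The Mrps18 genes are 3 paralogues, and they did not all pass the test. Mrps18b measured 7.82, 7.65 and 7.73 in Zbtb46+ CDPs, against 8.67, 8.51 and 8.23 in Zbtb46- CDPs, a fall of 1.66-fold (adjusted p = 0.00276 by limma). Mrps18a, named for the small subunit but seated in the large subunit of mammalian mitochondrial ribosomes, was 1.56-fold lower. Mrps18c measured 9.83, 10.84 and 10.98 in Zbtb46+ CDPs, against 11.16, 10.91 and 11.23 in Zbtb46- CDPs, and did not pass (-0.55 ± 0.26, adjusted p = 0.199). Its lowest array was Zbtb46+ replicate 1, which had the highest neutrophil granule signal, and without both replicate 1 arrays the difference was -0.16. Whether the paralogues differed from each other was not tested.

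Members that did not pass include Mrps12, of the decoding centre (-0.29, adjusted p = 0.0613 by limma), Mrps2 (-0.45, adjusted p = 0.121) and Mrps36 (-0.38, adjusted p = 0.285). Mrps36 is also known as a subunit of the 2-oxoglutarate dehydrogenase complex. The 3 smallest differences were those of Mrpl51 at 0.07, Mrps16 at -0.12 and Mrpl28 at -0.13. The probe sets of Mrpl51 disagreed in size: the second gave 0.30 where the main one gave 0.07.

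Mrpl52, a large-subunit protein particular to mitochondrial ribosomes, was the member that ran against the list. It measured 9.12, 8.89 and 8.95 in Zbtb46+ CDPs, against 8.73, 8.06 and 8.31 in Zbtb46- CDPs, so that the highest Zbtb46- array came close to the lowest Zbtb46+ array. The mean was 1.54-fold higher (0.62 ± 0.16, adjusted p = 0.0318 by limma). After quantile normalization the difference was 0.79 and without the replicate 1 arrays 0.73, both past the threshold. With each of the 9 arrays left out in turn it ran from 0.47 to 0.80 and passed in 4 of 9 fits.

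The second comparison asks what separates pre-CD8 DCs from Zbtb46+ CDPs and it shares the Zbtb46+ CDP arrays with the first. In pre-CD8 DCs 12 members were higher and none (0) lower, where 4.76% of all genes were higher and 1.86% lower, and 8.95% of genes of the same brightness range were higher. At an unadjusted p under 0.05, 43 members passed in either direction, and 19.0% of all genes did. The median difference was 0.29, against -0.03 over all genes, and 74 members were positive. The 3 pre-CD8 DC arrays lay above the 3 Zbtb46+ arrays in 48 members (12.6% of all genes).

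This count changed with the arrays and the scaling. Without both replicate 1 CDP arrays 32 members were higher, the 12 among them (12.5% of all genes), and after quantile normalization 5 were (3.76% of all genes). With both changes 9 were higher and 2, Mrpl23 and Mrpl33, were lower (7.4% and 7.97% of all genes), and the median was 0.14. Leaving out Zbtb46+ replicate 1 gave 21 (9.05% of all genes) and leaving out Zbtb46+ replicate 2 gave 4 (2.86% of all genes). It was 4 without pre-CD8 DC replicate 1 (2.34% of all genes) and 4 without replicate 3 (2.3% of all genes). Without pre-CD8 DC replicate 2 it was 1 of 77, a share of 1.3% that is below the 2.75% of all genes. A fit of these 2 groups alone gave 3 (3.9% of members, 3.01% of all genes).

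The 12 members were Mrpl9, Mrpl14, Mrpl20, Mrpl24, Mrpl32, Mrpl45, Mrpl48, Mrpl50, Mrpl52, Mrps14, Mrps28 and Mrps30. After quantile normalization Mrpl14, Mrpl20, Mrpl24, Mrpl45, Mrpl50, Mrps14 and Mrps28 lost this call. With the replicate 1 CDP arrays left out as well, Mrpl14, Mrpl20, Mrpl24, Mrpl32, Mrpl45, Mrpl48, Mrpl50 and Mrps14 did. Mrpl32, whose maturation by the inner membrane AAA protease is needed for ribosome assembly, measured 7.74, 7.46 and 7.54 in Zbtb46- CDPs, 6.66, 6.80 and 7.35 in Zbtb46+ CDPs, and 7.45, 7.81 and 7.72 in pre-CD8 DCs. It was 1.66-fold higher in pre-CD8 DCs than in Zbtb46+ CDPs (0.73 ± 0.18, adjusted p = 0.0428 by limma) and 1.56-fold lower in Zbtb46+ than in Zbtb46- CDPs. Its 3 Zbtb46+ arrays were widely spread, and replicate 3 lay only just below the other groups.

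Mrps30, despite its name a protein of the large subunit in mammals, measured 8.78, 8.41 and 8.59 in Zbtb46- CDPs, 7.71, 7.96 and 8.26 in Zbtb46+ CDPs, and 8.55, 8.78 and 8.80 in pre-CD8 DCs. The Zbtb46+ arrays lay below both neighbours, but replicate 3 at 8.26 came near the lowest Zbtb46- array at 8.41. The difference in pre-CD8 DCs against Zbtb46+ CDPs was 0.73 ± 0.15 (adjusted p = 0.0214 by limma). The call in Zbtb46+ against Zbtb46- CDPs was lost after quantile normalization and without the replicate 1 arrays. Mrpl9, which has a counterpart in bacterial ribosomes, measured 8.95, 8.85 and 8.81 in Zbtb46- CDPs, 8.19, 8.29 and 8.14 in Zbtb46+ CDPs, and 8.85, 8.78 and 8.86 in pre-CD8 DCs. Its arrays lay close together within each group, and it passed in both comparisons at -0.66 ± 0.07 (adjusted p = 0.000539 by limma) and 0.62 ± 0.07 (adjusted p = 0.00126), also after quantile normalization and without the replicate 1 arrays.

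Mrpl45, which anchors the ribosome to the inner membrane near the peptide exit, averaged 8.26 ± 0.12, 7.54 ± 0.14 and 8.05 ± 0.18 (SD, n = 3 each) in Zbtb46- CDPs, then Zbtb46+ CDPs, then pre-CD8 DCs. Mrps28 averaged 9.15 ± 0.08, 8.28 ± 0.27 and 8.89 ± 0.07 in the same order. Mrpl50 averaged 9.51 ± 0.13, 8.42 ± 0.24 and 9.06 ± 0.14 across the 3 populations, so its pre-CD8 DC arrays stood between the CDP groups. Mrpl14, the contact of the assembly factor Malsu1, and Mrpl24, at the peptide exit tunnel, were higher in pre-CD8 DCs than in Zbtb46+ CDPs by 0.46 and 0.41, and pre-CD8 DCs overlapped with Zbtb46- CDPs in both. From Zbtb46- CDPs through Zbtb46+ CDPs to pre-CD8 DCs, Mrpl48 averaged 9.69, 9.30 and 9.73, Mrps14 averaged 10.10, 9.64 and 10.07, and Mrpl20 averaged 9.48, 9.11 and 9.44. In these 3 as well the pre-CD8 DC arrays overlapped with the Zbtb46- arrays and lay above the Zbtb46+ arrays. The smallest differences of this comparison were those of Mrpl35 at 0.00, Mrpl49 at -0.01 and Mrpl10 at 0.03. Of the 77 members, 24 overlap another gene in the RefSeq annotation, and 19 overlap a coding gene. Among the members higher in this comparison, Mrpl14 (Tmem63b), Mrpl24 (Rrnad1), Mrpl48 (Cox20b and Rab6a) and Mrps28 (Gm15466, Gm52600 and Gm52601) do. Whether the probes of such members are free of the other gene was not tested.

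**Figure D3:**
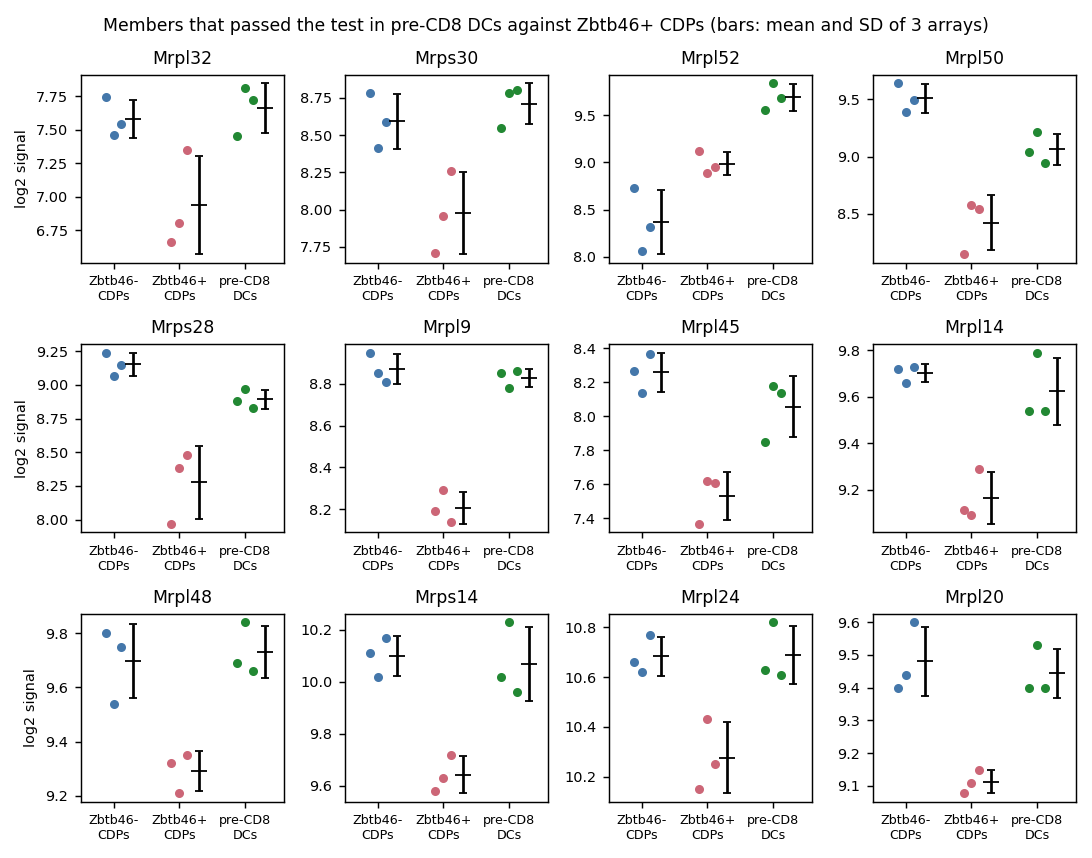
Log2 signal (y axis) of the 12 members that passed in pre-CD8 DCs against Zbtb46+ CDPs, with a point per array and the mean and SD of 3 arrays beside it, in Zbtb46- CDPs, then Zbtb46+ CDPs, then pre-CD8 DCs from left to right. All but Mrpl52 are lowest in Zbtb46+ CDPs, and Mrpl52 is highest in pre-CD8 DCs, with means of 8.37, 8.99 and 9.69 in the same order.

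Mrpl52 was higher once more, at 9.55, 9.84 and 9.68 in pre-CD8 DCs against 9.12, 8.89 and 8.95 in Zbtb46+ CDPs, a 1.63-fold difference (0.70 ± 0.16, adjusted p = 0.0318 by limma). It passed in 3 of 9 fits with an array left out. Across the whole span, pre-CD8 DCs against Zbtb46- CDPs, it was higher by 1.32 ± 0.16 on the log2 scale (adjusted p = 0.000433 by limma) and passed in 9 of 9 such fits. No other gene overlaps the Mrpl52 gene in the RefSeq annotation.

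The promoters of Mrpl50, Mrpl32, Mrps30 and Mrpl52 are taken from RefSeq (build GRCm38.p6). They were chosen among members called in both comparisons that had a single window. Of those lower in Zbtb46+ CDPs, Mrpl50, Mrpl32 and Mrps30 had the largest values of the second difference minus the first. Mrpl52 was the only such member higher in Zbtb46+ CDPs. Mrps28 had no window. Each window runs 5′ to 3′ on the gene's strand, from 250 bases before the start to 50 after it, with matches in capitals to CACGTG (the E-box of Myc and Max), CCGGAAG (Ets factors and GABP), GCATGCG (inner letters of the NRF1 site), AAGATGG (YY1) and GGGCGG (GC box) on either strand.
Mrpl50, chr4:49521034-49521333, minus strand: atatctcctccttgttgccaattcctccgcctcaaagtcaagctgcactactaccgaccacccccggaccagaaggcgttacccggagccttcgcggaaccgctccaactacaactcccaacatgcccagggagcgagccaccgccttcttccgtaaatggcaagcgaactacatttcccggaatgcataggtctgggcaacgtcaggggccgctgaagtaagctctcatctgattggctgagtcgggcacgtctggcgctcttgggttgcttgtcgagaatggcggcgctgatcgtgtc
Mrpl32, chr13:14612988-14613287, minus strand: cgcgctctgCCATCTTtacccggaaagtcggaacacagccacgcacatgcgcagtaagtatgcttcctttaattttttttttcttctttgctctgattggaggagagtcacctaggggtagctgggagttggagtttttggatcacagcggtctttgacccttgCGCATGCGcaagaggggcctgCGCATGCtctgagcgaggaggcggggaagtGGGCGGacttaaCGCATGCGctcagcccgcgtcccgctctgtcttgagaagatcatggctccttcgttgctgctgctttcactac
Mrps30, chr13:118387203-118387502, minus strand: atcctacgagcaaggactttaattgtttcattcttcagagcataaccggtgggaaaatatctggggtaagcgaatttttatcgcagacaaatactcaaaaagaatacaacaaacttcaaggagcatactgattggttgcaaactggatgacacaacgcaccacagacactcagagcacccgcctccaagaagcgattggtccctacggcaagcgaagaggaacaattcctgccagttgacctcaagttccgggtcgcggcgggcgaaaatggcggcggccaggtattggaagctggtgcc
Mrpl52, chr14:54426659-54426958, plus strand: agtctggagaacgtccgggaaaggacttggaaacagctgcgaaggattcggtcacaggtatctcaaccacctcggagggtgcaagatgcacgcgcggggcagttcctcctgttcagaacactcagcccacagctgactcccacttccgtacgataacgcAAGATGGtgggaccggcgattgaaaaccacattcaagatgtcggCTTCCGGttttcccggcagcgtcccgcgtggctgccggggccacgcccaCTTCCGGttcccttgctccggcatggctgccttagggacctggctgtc
The Mrpl32 window holds 5 NRF1 matches, some overlapping each other, 1 YY1 match and 1 GC box. The Mrpl52 window holds 2 Ets matches and 1 YY1 match. None of the 5 motifs, as spelled, is in the Mrpl50 or Mrps30 window.

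A RefSeq window was found for 68 of the 77 members. The Ets motif was in 25 of them (36.8%, against 9.9% of the windows of 27025 genes). The YY1 motif was in 13 (19.1% against 7.3%) and the NRF1 motif in 8 (11.8% against 4.0%). The GC box was in 34 of the 68, a larger share than the 38.2% of all genes. The E-box was in 5 (7.4% against 8.1%). Split by the call in Zbtb46+ against Zbtb46- CDPs, the Ets motif was in 10 of 34 lower and 14 of 33 uncalled members, and the YY1 motif in 5 and 7. The E-box was in 4 of 34 lower and 1 of 33 uncalled members. These are matches of letters, not sites shown to be bound, and no difference between these counts was tested. Members lie on 17 chromosomes.

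Over the whole span, pre-CD8 DCs against Zbtb46- CDPs, 12 members were lower and Mrpl52 alone was higher, where 9.23% of all genes were lower and 6.43% higher, and 15.9% of genes of the same brightness range were lower. After quantile normalization 12 members and 15.9% of that brightness range were lower. The median difference was -0.15, and the 3 pre-CD8 DC arrays lay below the 3 Zbtb46- arrays in 28 members (19.2% of all genes). This comparison shares the Zbtb46- CDP arrays with the first and the pre-CD8 DC arrays with the second. Leaving out single arrays gave 3 lower members without Zbtb46- replicate 1, 4 without Zbtb46- replicate 3, and 3, 5 and 3 without pre-CD8 DC replicates 1, 2 and 3. In those fits the members' shares of 3.9%, 5.19%, 3.9%, 6.49% and 3.9% were below the 6.63%, 6.79%, 6.4%, 6.99% and 6.33% of all genes. Without Zbtb46+ replicate 1 it was 22 (28.6%, against 12.8% of all genes).

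Mrpl23, at the exit tunnel, measured 9.69, 9.84 and 9.69 in pre-CD8 DCs, against 10.43, 10.20 and 10.40 in Zbtb46- CDPs (-0.61 ± 0.12, adjusted p = 0.00704 by limma). Its second probe set gave -0.62, and its level in Zbtb46+ CDPs was 9.88. The Mrpl23 arrays did not overlap, and its pre-CD8 DC mean was the lowest of the 3 populations. Mrpl47 averaged 8.21 in pre-CD8 DCs and 8.74 in Zbtb46- CDPs (-0.53). Mrpl16 averaged 8.87 in pre-CD8 DCs and 9.34 in Zbtb46- CDPs (-0.47), and Mrpl19, a protein at the interface of the subunits, averaged 9.02 in pre-CD8 DCs and 9.48 in Zbtb46- CDPs (-0.46). Mrpl11, Mrpl50 and Mrps18b were each lower, with a difference of -0.45, and Mrps18a and Mrps5 of -0.44. Mrpl33, Mrpl49 and Mrpl12 were the others. Mrpl33 and Mrpl50 lost this call after quantile normalization, Mrpl11 and Mrpl49 without the replicate 1 CDP arrays, and Mrpl19 and Mrpl50 with a replicate block. With median scaling Mrpl19, Mrpl33, Mrpl49 and Mrpl50 lost it. Mrpl24, Mrpl4 and Mrps36 differed least over the span, at 0.00, -0.01 and -0.02.

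A contrast of the difference in pre-CD8 DCs against Zbtb46+ CDPs minus that in Zbtb46+ against Zbtb46- CDPs tests the bend itself in each gene. It passed, with a positive bend, in 29 members and with a negative bend in none (0). Of all genes 6.26% passed positive and 1.36% negative, and 11.8% of genes of the same brightness range passed positive. A fall in Zbtb46+ CDPs alone also gives a positive bend, so a pass does not show a rise in pre-CD8 DCs. Mrpl12, for example, passed with a bend of 0.58, but its difference in pre-CD8 DCs against Zbtb46+ CDPs was 0.14 (adjusted p = 0.362 by limma). In that comparison itself 12 members were higher. At an unadjusted p under 0.05, 55 members passed, and 23.4% of all genes did. The median bend was 0.70, against -0.06 over all genes. The largest was that of Mrpl50 at 1.73 ± 0.22, next to Mrpl38 at 1.71 ± 0.38. Mrpl52 had a bend of 0.09. Mrpl51 had one of 0.04 by its main probe set and -0.59 by its second, so the probe sets disagreed. After quantile normalization 13 passed (4.0% of all genes) with a median of 0.48, and with the replicate 1 CDP arrays also left out 17 (6.91% of all genes) with a median of 0.34. Without Zbtb46- replicate 3 the count was 16 (3.22% of all genes), without Zbtb46+ replicate 2 it was 10 (2.7%), and without pre-CD8 DC replicate 2 or 3 it was 19 (4.24% and 3.57%).

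Lists of other ribosomal and respiratory genes were counted in the same fits, where 10.6% of all genes were lower in Zbtb46+ than in Zbtb46- CDPs and 4.76% were higher in pre-CD8 DCs than in Zbtb46+ CDPs. Of 62 cytosolic ribosomal protein genes, 28 were lower in Zbtb46+ CDPs (45.2%, median -0.29) and 5 were higher in pre-CD8 DCs than in Zbtb46+ CDPs (8.06%). After quantile normalization 17 were lower (27.4%, against 7.88% of all genes) and 1 was higher (1.61%, against 3.76%). The median signal of that list was then 12.40, 12.80 and 12.82 in Zbtb46+ CDPs, against 12.83, 12.82 and 12.80 in pre-CD8 DCs, so only Zbtb46+ replicate 1 stood below the pre-CD8 DC range. Of 91 genes of the respiratory chain and ATP synthase, whose core subunits the mitochondrial ribosome makes, 30 were lower in Zbtb46+ CDPs (33.0%, median -0.33) and 10 were higher in pre-CD8 DCs than in Zbtb46+ CDPs. After quantile normalization 20 were lower and 4 were higher (4.4%, against 3.76% of all genes). The lists were not tested against the -0.45 of the mitochondrial ribosomal proteins.

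**Figure D4:**
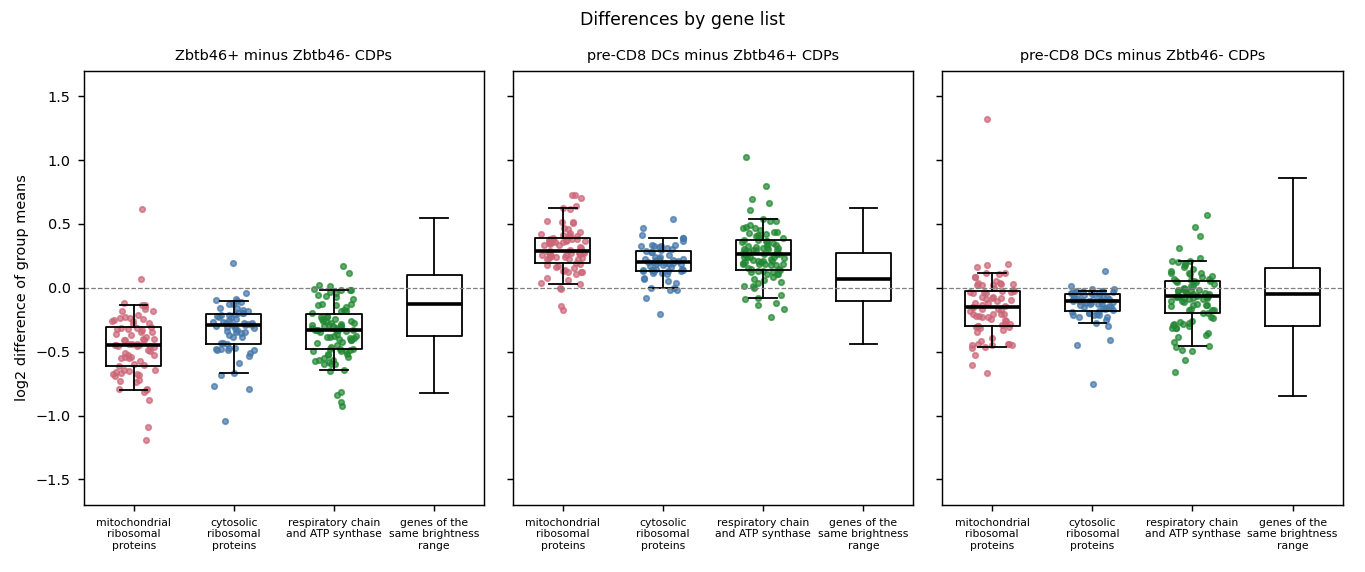
Log2 difference of group means (y axis) for each gene of 3 lists, with boxes for the quartiles, a bold line for the median and whiskers from the 5th to the 95th percentile; genes of the same brightness range as the members are shown as a box only. The members centre on -0.45 in Zbtb46+ minus Zbtb46- CDPs, on 0.29 in pre-CD8 DCs minus Zbtb46+ CDPs and on -0.15 in pre-CD8 DCs minus Zbtb46- CDPs, and the isolated high point in the first and last panels is Mrpl52.

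The other genes that build and run the mitochondrial ribosome were counted whatever they did. Of 4 measured ribosomal proteins with other names, Dap3, a small-subunit protein that binds GTP, fell to 8.41 ± 0.08 in Zbtb46+ CDPs, against 8.95 ± 0.08 in Zbtb46- CDPs (adjusted p = 0.00196 by limma), and its level in pre-CD8 DCs was 8.48. Chchd1, Ptcd3 and Gadd45gip1 did not pass, at -0.44, -0.44 and -0.33. Of 25 assembly and RNA modification factors 12 were lower in Zbtb46+ CDPs (48.0%, against 10.6% of all genes, median -0.34) and 8 higher in pre-CD8 DCs than in Zbtb46+ CDPs (32.0%, against 4.76% of all genes). After quantile normalization 9 were lower and 6 higher. Fastkd2, an RNA-binding factor for the large ribosomal RNA, averaged 7.41 in Zbtb46+ CDPs and 8.97 in Zbtb46- CDPs (-1.55, adjusted p = 0.000256 by limma). Noa1, a GTPase of small-subunit assembly, averaged 8.97, 8.11 and 8.83 in Zbtb46- CDPs, then Zbtb46+ CDPs, then pre-CD8 DCs, and Mtg1, a GTPase of large-subunit assembly, averaged 7.91, 7.39 and 7.91 in the same order. Both passed in both comparisons.

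Of 15 translation factors 8 were lower in Zbtb46+ CDPs (53.3%, against 10.6% of all genes, median -0.49) and 1, the elongation factor Gfm1, was higher in pre-CD8 DCs than in Zbtb46+ CDPs (6.67%, near the 4.76% of all genes). After quantile normalization 5 were lower (33.3%, against 7.88% of all genes), and Gfm1 did not pass (adjusted p = 0.259 by limma). Mtrf1, a release factor, differed by -1.25 and Lrpprc, which stabilises mitochondrial messenger RNA, by -0.77 in Zbtb46+ against Zbtb46- CDPs (adjusted p = 0.00506 and 0.00119 by limma). Mrrf, the ribosome recycling factor, fell to 7.07 in Zbtb46+ CDPs, against 7.88 in Zbtb46- CDPs, and was also 7.07 in pre-CD8 DCs. Of 19 mitochondrial tRNA synthetases and amidotransferase subunits 9 were lower (47.4%, median -0.43) and 2, Hars2 and Yars2, were higher in the second comparison, neither of which passed there after quantile normalization or with a replicate block. Of 10 genes of mitochondrial transcription and DNA maintenance 4 were lower (median -0.57), among them the transcription factor Tfb2m at -0.94 (adjusted p = 0.000196 by limma), which was higher by 0.47 in pre-CD8 DCs than in Zbtb46+ CDPs.

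Of 14 outer membrane, import and matrix genes 7 were lower in Zbtb46+ CDPs (median -0.51) and 4 after quantile normalization, and none (0) passed in pre-CD8 DCs against Zbtb46+ CDPs, with 5 at an unadjusted p under 0.05. Hspa9, the matrix chaperone that drives import, averaged 9.52 in pre-CD8 DCs and 9.24 in Zbtb46+ CDPs, which did not pass. Against the 10.76 of Zbtb46- CDPs it was lower in Zbtb46+ CDPs (log2 difference -1.52, adjusted p = 0.000138 by limma).

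**Figure D5:**
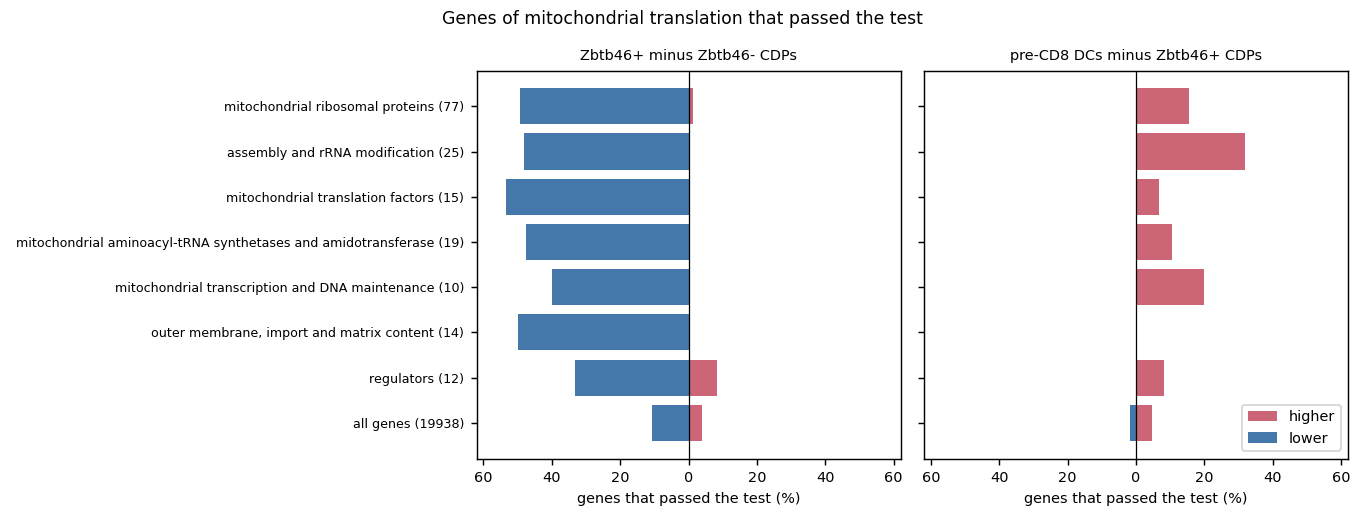
Percent of the measured genes of each list (number in brackets) that passed limma's test, lower to the left and higher to the right, in Zbtb46+ minus Zbtb46- CDPs and in pre-CD8 DCs minus Zbtb46+ CDPs. On the left every list reaches further down than all genes at 10.6%, and on the right the assembly factors reach furthest up, at 32.0%.

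Among 12 regulators of these genes, 4 were lower and 1 higher in Zbtb46+ CDPs (33.3% and 8.33%, against 10.6% and 3.85% of all genes, median -0.27). Myc measured 10.36, 9.72 and 9.65 in Zbtb46+ CDPs, against 11.53, 11.46 and 11.54 in Zbtb46- CDPs (-1.60, adjusted p = 0.000388 by limma), and averaged 10.69 in pre-CD8 DCs (0.78 above Zbtb46+ CDPs, adjusted p = 0.0243). Mycl, its relative in DCs, was higher in Zbtb46+ CDPs by 0.99 and reached 9.94 in pre-CD8 DCs. Max, Pprc1 and Gabpb1 were lower in Zbtb46+ CDPs, Pprc1 only just (adjusted p = 0.0499 by limma), while Nrf1 (0.16), Gabpa (-0.28), Esrra (-0.02) and Yy1 (-0.26) did not pass. Primary granule genes (4 of 4 measured) are markers of granulocyte-monocyte progenitors. Their summed linear signal was 7212 to 14198 in Zbtb46+ CDPs, highest in replicate 1, against 26635 to 26780 in Zbtb46- CDPs, and 436 to 464 in pre-CD8 DCs. In Zbtb46+ against Zbtb46- CDPs 3 of the 4 were lower, and Elane did not pass (-1.62, adjusted p = 0.134 by limma). The part of the primary granule genes, and that of Myc, in the differences of the members was not tested.

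The genes whose profile over the 9 arrays was most like the median member were Ruvbl1, an ATPase of chromatin and RNA-protein assembly (Pearson r = 0.988), Cyc1, a cytochrome of respiratory complex III (0.978), Actl6a (0.976), Rnaseh1 (0.975) and Prorsd1 (0.974). The points share arrays and scaling, so these correlations are descriptions. Ruvbl1 averaged 9.81, 8.77 and 9.28 in Zbtb46- CDPs, then Zbtb46+ CDPs, then pre-CD8 DCs, and Cyc1 averaged 10.44, 9.89 and 10.18.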

How the data were processed

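RNA from 9 sorted samples was amplified and labelled at pico scale and hybridized to Affymetrix gene arrays. The deposited values are RMA signal intensity per probe set, made in Affymetrix Expression Console per the submitters' processing notes; versions, the genome build and further settings are not given in the sources used here. They proved linear (7.45 to 20455.6), so log2 was taken and nothing else was scaled. Of 28853 probe sets, 21789 carried 1 gene symbol and were kept, 1621 carried several and 5443 were not in the annotation table. The brightest probe set stood for each of the 999 genes with several, leaving 19938 genes. Mrpl53 shares its probe set with another gene and is no member.

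A linear model of group means was fitted to all 9 arrays with limma 3.58.1 (lmFit, eBayes; R 4.3.3), with Benjamini-Hochberg adjustment over all genes and calls at an adjusted p under 0.05. The median residual SD was 0.136 over all genes and 0.154 over the members. P-values measure only the spread between these arrays. The steps were tested on simulated data. Same-numbered arrays of the CDP groups had residual correlations of 0.51, 0.42 and 0.36. Zbtb46+ replicate 2 and Zbtb46- replicate 3 gave 0.38, so the numbers do not settle whether arrays were pairs. The main fit used no pairs, and a replicate block was tried as an alternative. Same-numbered pre-CD8 DC arrays gave -0.03 to 0.17 with the CDP groups. Other alternatives were quantile normalization, median scaling, arrays left out, fits of 2 groups, a filter on the 30% dimmest genes, a gene's probe sets averaged, an intensity trend with robust moderation, a constant of 16 added before log2, and a threshold of 0.01. Quantile normalization without the replicate 1 CDP arrays, the count of members lowest in Zbtb46+ CDPs under these settings, and the background of genes in the members' brightness range were added after seeing the data.

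The members and lists were chosen with earlier results of these data known. Members named with values are, per comparison, the 8 called members with the largest difference each way among those whose groups do not overlap, members called against the majority, the 3 smallest differences, members called in both steps, and 12 members of known role. A planned naming of the 5 brightest and 5 dimmest members was dropped, since levels of different probe sets cannot be compared. Counts were tabulated in pandas 2.3.3 and plots drawn in matplotlib 3.10.9 under Python 3.11.15.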

Additional observations from a re-analysis of the deposited data

How the results depend on the processing

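The direction of the list median held under the alternatives run, and its size and the counts of calls did not. In Zbtb46+ against Zbtb46- CDPs, quantile normalization moved the lower members to 19 (7.88% of all genes) and the median to -0.31. Both replicate 1 CDP arrays left out as well gave 23 (9.83%) and -0.22. A fit of the 2 groups alone gave 23 lower and 0 higher (6.96% and 2.36%), and a threshold of 0.01 gave 19 and 0. Leaving out single arrays gave 20 to 50 lower and 0 to 1 higher (6.57% to 16.4% and 2.27% to 10.0% of all genes). In pre-CD8 DCs against Zbtb46+ CDPs the 12 higher members (4.76% of all genes) became 5 with quantile normalization (3.76%) and 32 without both replicate 1 CDP arrays (12.5%). Under both they became 9, with 2 lower and a median of 0.14 (7.4% and 7.97% of all genes). A fit of 2 groups gave 3 (3.01%), and that fit with a replicate block gave 2 (1.79%). A threshold of 0.01 gave 1, and single arrays left out gave 1 to 21 (2.3% to 9.05% of all genes). In pre-CD8 DCs against Zbtb46- CDPs the 12 lower members (9.23% of all genes) became 19 in a fit of 2 groups (11.6%). They were 19 with quantile normalization and no replicate 1 CDP arrays (11.5%), and 2 at a threshold of 0.01. Single arrays left out gave 3 to 22 (6.33% to 12.8% of all genes). The bend passed in 13 members (median 0.48, 4.0% of all genes) after quantile normalization. With the replicate 1 CDP arrays also left out it passed in 17 (median 0.34, 6.91% of all genes). It passed in 7 at a threshold of 0.01, and in 10 to 41 (median 0.64 to 0.80, 2.7% to 11.6% of all genes) without single arrays. Shares of all genes at the threshold of 0.01 are not given here. The cause of these changes was not tested.

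With a replicate block over all 9 arrays, 43 members were lower and 1 higher in Zbtb46+ against Zbtb46- CDPs (12.3% and 5.06% of all genes). Of the 43, 37 were shared with the fit without it. The block left 12 higher in pre-CD8 DCs against Zbtb46+ CDPs (5.0% of all genes), 11 lower against Zbtb46- CDPs (10.3%), and 26 with a bend (6.68%).

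Some differences near 0 changed sign. Over all 77 members, quantile normalization moved the number above 0 in Zbtb46+ against Zbtb46- CDPs to 6 as against 2, and the number below 0 in pre-CD8 DCs against Zbtb46+ CDPs to 9 as against 3. Among the members named for small differences or a known role, the sign changes follow. In Zbtb46+ against Zbtb46- CDPs these were Mrps16 (0.01) and Mrpl28 (0.01) after quantile normalization, Mrpl28 (0.04) and Mrps36 (0.04) with replicate 1 CDP arrays also out, and Mrpl51 without single arrays (-0.02 to 0.15, below 0 without Zbtb46- replicate 2 or Zbtb46+ replicate 3). In pre-CD8 DCs against Zbtb46+ CDPs, quantile normalization gave Mrpl35 -0.03 and Mrpl10 -0.07, and with replicate 1 CDP arrays out -0.04 and -0.11. Mrpl49 was 0.02 with median scaling and 0.05 without replicate 1 CDP arrays. Single arrays left out gave Mrpl35 -0.06 to 0.05, Mrpl49 -0.10 to 0.05 and Mrpl10 -0.02 to 0.08. In pre-CD8 DCs against Zbtb46- CDPs, quantile normalization gave Mrpl24 -0.02, Mrpl4 0.03 and Mrps36 0.03, and with replicate 1 CDP arrays out Mrpl24 -0.06 and Mrpl4 0.04. Median scaling gave Mrpl4 0.02 and Mrps36 0.02, leaving out replicate 1 CDP arrays alone Mrpl24 -0.01 and Mrpl4 0.06, and the mean of probe sets Mrps36 0.00. Single arrays left out gave Mrpl24 -0.06 to 0.04, Mrpl4 -0.06 to 0.06 and Mrps36 -0.15 to 0.12.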
